A study of Mus musculus with 12 samples.

Results

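The genes described here encode the mitochondrial ribosome and the machinery that imports proteins into mitochondria. They were chosen by symbol: Mrpl and Mrps followed by a number (proteins of the large and of the small ribosomal subunit), Timm followed by a number (translocases of the inner membrane and their chaperones) and Tomm followed by a number (translocases of the outer membrane). The array measured 101 such genes among 19938 named genes: 48 Mrpl, 29 Mrps, 14 Timm and 10 Tomm. RefSeq lists 103 protein-coding genes with these symbols, and Mrpl53 and Timm10b lie only on probe sets shared with another gene and were left out. Where a gene had more than 1 probe set (12 genes), the one with the highest mean over the arrays stands for it.

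The samples were cumulus cells of the mouse, the follicle cells that surround the oocyte, from 129SV females 21 to 26 days old that had received 5 IU of equine chorionic gonadotropin 44 h earlier. Complexes of oocyte and cumulus cells were collected with the phosphodiesterase inhibitor cilostamide at 1 µM and cultured for 8 h, 20 to a drop of 50 µL, after which the oocytes were stripped off and discarded. The control group received control medium of 293H cells (0.125% by volume), the FSH/EGF group that medium with follicle-stimulating hormone (50 mIU/ml) and epidermal growth factor (10 ng/ml), and the GDF9 group growth differentiation factor 9 (20 ng/ml), an oocyte-secreted factor for which no control medium is named. Each group had 4 arrays, every array a pool of RNA from 2 of 8 biological replicates, and p-values therefore measure the spread between pools. The oocytes were present during the culture, and their own secreted factors were present in every group.

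Mitochondria keep a small genome whose messages code for core subunits of the respiratory chain, and they translate these on their own ribosome. All proteins of that ribosome are encoded in the nucleus, made in the cytosol and imported. Precursors pass the outer membrane through the TOM complex. TIM23 then moves those with a presequence into the matrix, TIM22 inserts carrier proteins into the inner membrane, and the small TIM chaperones escort hydrophobic precursors across the intermembrane space. In cumulus cells, FSH and EGF-like factors bring on expansion of the matrix and a change in metabolism before ovulation. Mitochondrial ribosomal proteins are of 2 kinds: those with a counterpart in the bacterial ribosome, and those that are specific to mitochondria.

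Markers of granulosa cells, the lineage of cumulus cells, were bright on every control array, with Inha at 11.64 to 11.75 and Foxl2 at 8.82 to 9.39 (log2 signal), and with FSH/EGF 7 of 10 granulosa markers fell and 1, Inhba, rose by 1.02. The median of 21 oocyte markers was 5.90 on control array 4 against 4.78 to 4.94 on the other controls, 4.65 to 4.80 with GDF9 and 4.67 to 5.00 with FSH/EGF; 1 oocyte marker rose with FSH/EGF (Uchl1 by 0.96) and 2 fell. The theca and stroma list (10 genes) held 1 rise (Star, 2.02) and 3 falls (Acta2 the furthest, -2.34), with a summed linear signal of 617 to 658 with FSH/EGF, 793 to 1194 with GDF9 and 891 to 1069 in the controls. Both measured red blood cell markers fell, by 0.30 and 0.31. Of 9 endothelial markers 2 rose (Cdh5 by 3.18 and Tek by 0.29), and of 9 leukocyte markers 1 rose (Cd68 by 0.50). Control array 1 had the lowest array weight, 0.269. Upper quartiles of the arrays ran from 7.18 to 7.22 with FSH/EGF, from 6.97 to 7.07 in the controls and from 6.99 to 7.14 with GDF9, so the deposited values were not matched in their upper range. The part of these differences in the results was not tested.

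The stretch before the transcription start was searched for motifs of factors known to act on genes for mitochondrial proteins. The sequences below are the 120 bases before the start on the strand of the gene (RefSeq, GRCm38.p6), chosen after the expression values were seen: Mrps6 as the largest rise, genes that rose and carry an ETS match at different distances and on either strand, and Mrpl16 as a gene that rose and carries a CRE. Capitals mark matches to the ETS core CCGGAAG or to the cAMP response element (CRE) TGACGTCA on either strand. The windows lie at chr16:92058216-92058335 (+) for Mrps6, chr9:98601680-98601799 (-) for Mrps22, chr9:50603781-50603900 (+) for Timm8b, chr2:130563637-130563756 (+) for Mrps26, chr6:125192080-125192199 (+) for Mrpl51, chr19:45006443-45006562 (-) for Mrpl43 and chr19:11770295-11770414 (+) for Mrpl16.
Mrps6: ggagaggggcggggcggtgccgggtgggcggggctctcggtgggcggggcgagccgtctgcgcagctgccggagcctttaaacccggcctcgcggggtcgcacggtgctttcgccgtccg
Mrps22: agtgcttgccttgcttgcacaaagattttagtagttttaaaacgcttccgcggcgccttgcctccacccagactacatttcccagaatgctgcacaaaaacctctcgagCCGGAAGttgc
Timm8b: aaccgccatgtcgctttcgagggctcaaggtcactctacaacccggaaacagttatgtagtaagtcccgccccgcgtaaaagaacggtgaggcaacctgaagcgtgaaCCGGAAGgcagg
Mrps26: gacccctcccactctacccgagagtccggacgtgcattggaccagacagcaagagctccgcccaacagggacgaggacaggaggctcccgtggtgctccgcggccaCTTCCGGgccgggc
Mrpl51: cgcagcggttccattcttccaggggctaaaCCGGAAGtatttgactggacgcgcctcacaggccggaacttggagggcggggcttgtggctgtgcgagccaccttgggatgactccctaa
Mrpl43: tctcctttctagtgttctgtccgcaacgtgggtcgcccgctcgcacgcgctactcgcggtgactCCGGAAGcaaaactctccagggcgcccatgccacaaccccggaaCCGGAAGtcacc
Mrpl16: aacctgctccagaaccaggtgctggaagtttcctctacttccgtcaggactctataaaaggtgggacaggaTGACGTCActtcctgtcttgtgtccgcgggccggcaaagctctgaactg
The ETS match began 11 bases before the start in Mrps22, 12 in Timm8b, 14 in Mrps26 (minus strand), 90 in Mrpl51, and 56 and 12 in Mrpl43. The CRE match of Mrpl16 began 49 bases before the start. Mrps6 held none of the 5 motifs searched in the 250 bases before its start.

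Promoter windows of 300 bases (250 before the start and 50 after) were found for 89 members, 97 windows in all. The ETS core, the element bound by GABP (also called nuclear respiratory factor 2), stood in 35.1% of these windows, against 12.1% of windows of all measured genes and 8.86% of all promoters in the table. The YY1 motif AAGATGGC was found in 13.4% (3.19% of measured genes), the nuclear respiratory factor 1 motif GCGCATGCG in 8.25% (2.55%), the E-box CACGTG in 12.4% (8.26%) and the CRE in 2.06% (2.38%). Both strands were searched, and in 0 windows did matches of different motifs overlap. The median GC content was 58.3% in the members' windows and 57.7% in those of measured genes. By class, the ETS core was in 29.8% of Mrpl, 40.7% of Mrps, 35.7% of Timm and 44.4% of Tomm windows. It stood in 14 of 38 windows of members that rose with FSH/EGF (36.8%) and in 20 of 59 windows of the others (33.9%). A match is a run of letters, and binding was not measured.

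The comparison of FSH/EGF with control asked how the combined hormone and growth factor treatment alters these transcripts. Of the 101 members, 42 rose, 2 fell and 57 did not pass the test (limma, Benjamini-Hochberg adjusted p under 0.05 over all probe sets). Among all genes, 21.9% rose and 14.9% fell. Among genes above the dimmest 40% of probe sets, a closer match in signal, 30.7% rose and 17.5% fell. The rises were small: the members' median difference was 0.20 on the log2 scale, against -0.07 for all genes and 0.01 for the brighter genes, and 77 of 101 differences were above 0. Mrps6 and Mrps18b alone rose at least 2-fold. The arrays of the 2 groups did not overlap for 41 members (40.6%), close to the 41.9% of all genes. In bulk RNA, fewer cells of a type and less RNA per cell cannot be told apart.

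These counts depended on the scaling. After renewed quantile normalization, which makes the arrays' distributions identical, 22 members rose and 10 fell, the members' median difference was 0.05, and 23.6% of the brighter genes rose and 19.6% fell. With array medians set equal, 46 rose and 1 fell. Without control arrays 1 and 4 together, 32 rose and 1 fell. The members' share of rises was thus above that of the brighter genes in the deposited values (41.6% against 30.7%) and not above it after quantile normalization. In all, 21 of the 44 called members kept their call under each of 23 alternatives: Mrpl1, Mrpl18, Mrpl19, Mrpl20, Mrpl33, Mrpl35, Mrpl38, Mrpl40, Mrpl41, Mrpl45, Mrpl51, Mrps6, Mrps18b, Mrps22, Mrps23, Mrps25, Mrps31, Mrps36, Timm8b, Timm29 and Tomm40l.

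By class, 19 of 48 Mrpl genes rose (39.6%) and 2 fell (median 0.20), and 13 of 29 Mrps rose (44.8%) and 0 fell (median 0.21). Of 14 Timm genes 7 rose (50%) and 0 fell (median 0.25), and of 10 Tomm genes 3 rose (30%) and 0 fell (median 0.09). Rises made up 21.9% of all genes and 30.7% of the brighter genes, so the Tomm share was near that of the brighter genes. Renewed quantile normalization took the Mrpl median to 0.0071, the Timm median to 0.11 and the Tomm median to -0.13, the last a change of sign. Assigned by place in the ribosome rather than by name, with Mrps30 and Mrps18a in the large subunit and Mrps36 set aside because it is now counted as part of the 2-oxoglutarate dehydrogenase complex, 20 of 50 large-subunit genes rose and 2 fell, and 11 of 26 small-subunit genes rose and 0 fell. These are 40% and 42.3% of the subunits' genes, a difference that was not tested.

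**Figure D1:**
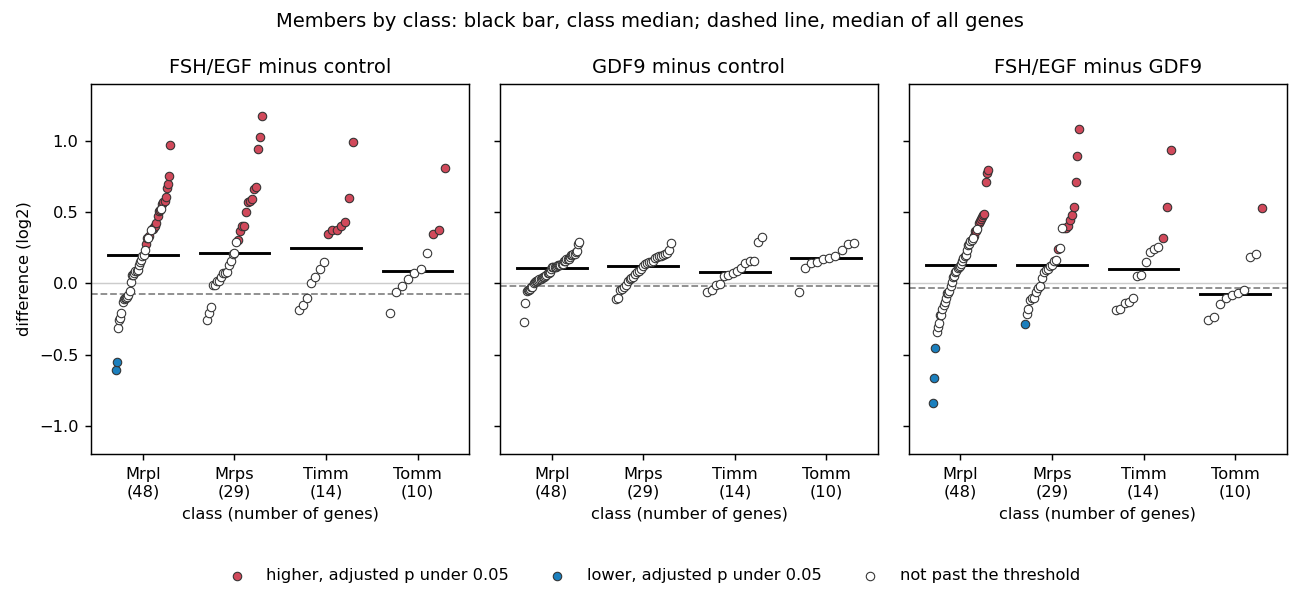
Log2 differences of the 101 members in each comparison, one point per gene, by the classes Mrpl, Mrps, Timm and Tomm. Red points rose and blue points fell at an adjusted p under 0.05; most FSH/EGF calls are red, none is coloured for GDF9, and the Tomm median (0.09 against control) changes sign to -0.13 after renewed quantile normalization.

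On single arrays, the class medians of the deviation from each gene's control mean showed the spread behind these counts. For Mrpl they were -0.04, -0.04, -0.02 and 0.08 on control arrays 1 to 4, 0.19, -0.07, 0.13 and 0.11 on the GDF9 arrays, and 0.30, 0.21, 0.19 and 0.12 on the FSH/EGF arrays. For Mrps they were -0.05, 0.01, 0.02 and 0.02 in the controls, 0.17, 0.0066, 0.17 and 0.12 with GDF9, and 0.35, 0.28, 0.22 and 0.08 with FSH/EGF. Both ribosomal classes were higher on every FSH/EGF array than on any control array, with array 4 the lowest of its group. The Timm medians ran from -0.13 to 0.12 in the controls and from 0.07 to 0.35 with FSH/EGF, and overlapped. The Tomm medians also overlapped, at -0.13 to 0.15 and -0.02 to 0.18. Over all genes the same median ran from -0.07 to -0.05 on the FSH/EGF arrays, below the controls.

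**Figure D2:**
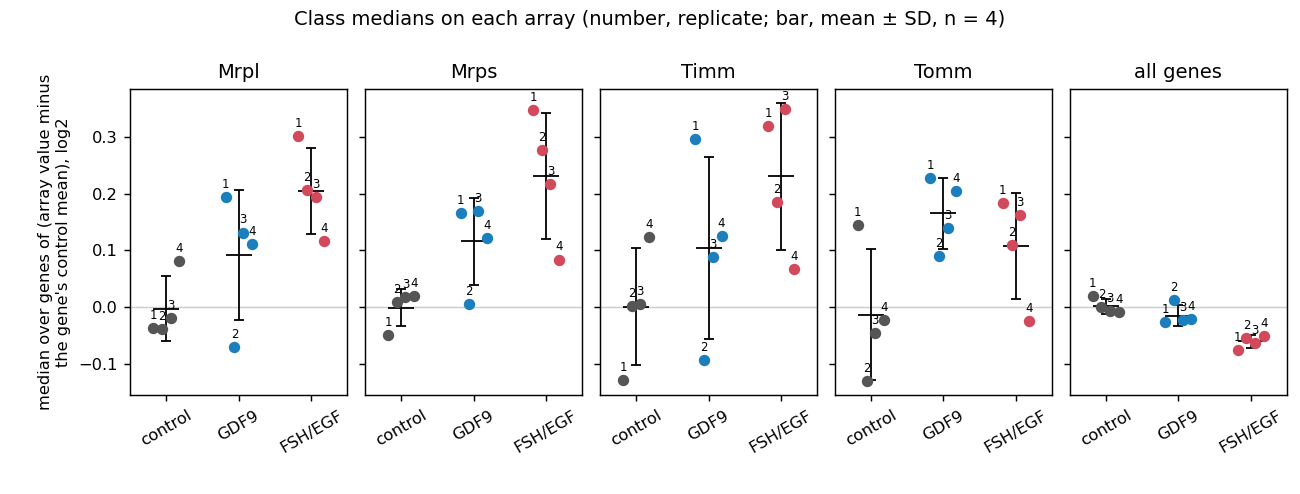
Median over the genes of a class of the array value minus the gene's control mean (log2), one numbered point per array, with the group's mean ± SD (n = 4). The Mrpl and Mrps points of all FSH/EGF arrays lie above those of the controls, the Timm and Tomm points overlap, and the medians of all genes lie between -0.07 and 0.02.

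Grouping the ribosomal genes by descent showed a larger contrast than grouping them by subunit. This grouping was chosen after the values were seen and is a description without a test. It follows the unified names of ribosomal proteins, by which Mrpl47 is the counterpart of bacterial L29 and Mrpl55 is specific to mitochondria. The exceptions are Mrps18a and Mrps18b, which those names class as specific to mitochondria. As paralogues of bacterial S18 they were counted here with the bacterial counterparts. Mrps18b rose and Mrps18a did not pass, and the counts without this exception were not computed. Of 29 genes for proteins specific to mitochondria, 20 rose with FSH/EGF (69.0%) and 0 fell, with a median of 0.40. Of 47 genes for proteins with a bacterial counterpart, 11 rose (23.4%) and 2 fell, with a median of 0.09. Among all genes 21.9% rose, and among the brighter genes 30.7%. The share of the genes with a bacterial counterpart was thus near that of all genes. The contrast appeared in both classes by name: 12 of 19 specific against 7 of 29 bacterial-type Mrpl genes rose, and 8 of 10 against 4 of 18 Mrps genes. Mrps30 and Mrps18a of the large subunit were counted here with Mrps. After renewed quantile normalization 10 of 29 specific genes rose (34.5%) and 1, Mrpl55, fell (median 0.22). Of 47 bacterial-type genes, 7 then rose (14.9%) and 8 fell (median -0.13), so the bacterial-type median changed sign with the scaling. Under that scaling 17.4% of all genes and 23.6% of the brighter genes rose. Over the 23 alternatives, the share that rose against control ran from 34.5% to 72.4% among the specific genes and from 14.9% to 34.0% among the bacterial-type genes. Against GDF9, 12 of 29 specific genes (41.4%) and 9 of 47 bacterial-type genes (19.1%) rose with FSH/EGF. In that comparison 18.6% of all genes and 25.9% of the brighter genes rose. After renewed quantile normalization these shares against GDF9 were 17.2% and 14.9%, so the contrast in calls was then small. Under that scaling 15.6% of all genes and 21.1% of the brighter genes rose against GDF9. The share of the specific genes was then near that of all genes and below that of the brighter genes.

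The median deviation of the specific genes was 0.47, 0.43, 0.39 and 0.31 on the FSH/EGF arrays and at most 0.22 on any other array. That of the bacterial-type genes was 0.15, 0.14, 0.17 and 0.02 on the FSH/EGF arrays and from -0.05 to 0.06 in the controls, which overlapped. The typical signal was alike in the 2 sets, with a median level of 7.26 for the specific and 7.36 for the bacterial-type genes, and the median SE of a difference was 0.11 and 0.12. With GDF9, 0 genes of either set passed the test, and the medians were 0.12 and 0.10.

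**Figure D3:**
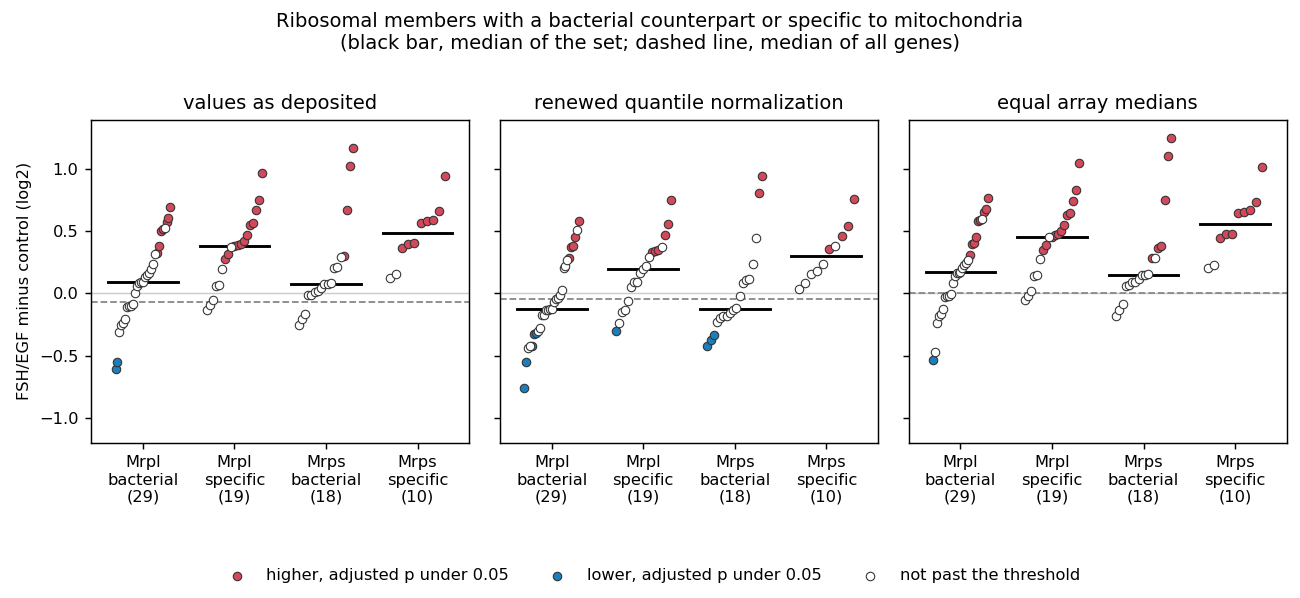
Log2 difference between FSH/EGF and control for ribosomal genes with a bacterial counterpart (29 Mrpl, 18 Mrps) and genes specific to mitochondria (19 Mrpl, 10 Mrps), under 3 scalings, with red and blue points for rises and falls at an adjusted p under 0.05. The medians of the specific genes lie higher in each panel, and the medians of the bacterial-type genes lie below 0 after renewed quantile normalization.

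Among Mrps genes, Mrps6 rose most. Mrps6, the counterpart of bacterial S6, a protein of the platform of the subunit, stood at 8.44, 8.73, 8.51 and 8.81 on the control arrays, at 9.05, 8.42, 8.71 and 8.67 with GDF9, and at 9.96, 9.79, 9.43 and 10.00 with FSH/EGF. All FSH/EGF arrays were above all others. The rise over control was 1.17 ± 0.15 (log2, SE, n = 4 and 4), or 2.25-fold, with a limma adjusted p of 7.83e-05.

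The 3 paralogues of bacterial S18 went different ways. Mrps18b was at 7.90, 8.01, 8.22 and 8.07 in the controls, 8.13, 8.13, 8.10 and 8.36 with GDF9, and 9.24, 8.86, 9.16 and 9.04 with FSH/EGF, a rise of 1.03 ± 0.10 (2.04-fold, adjusted p = 6.03e-06) without overlap. Mrps18c, which takes the place of S18 beside S6, was at 7.59, 7.97, 8.35 and 8.18 in the controls, 8.78, 7.65, 8.63 and 8.18 with GDF9, and 8.85, 8.83, 8.79 and 8.31 with FSH/EGF. It rose by 0.67 ± 0.24 (adjusted p = 0.0492), with overlapping arrays. This call was lost without any single one of control arrays 1, 2 and 4, FSH/EGF arrays 1 to 3 or GDF9 arrays 3 and 4 (adjusted p from 0.0526 to 0.125), and under quantile normalization (0.156). Mrps18a, a part of the large subunit, differed by 0.02 ± 0.09 (95% interval -0.17 to 0.21; adjusted p = 0.888), with 8.35, 8.37, 8.41 and 8.23 in the controls and 8.40, 8.28, 8.51 and 8.25 with FSH/EGF.

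Apart from the S18 paralogues described above, the next rises among Mrps genes were in proteins specific to mitochondria. Mrps22, whose inherited defects in humans have been linked to ovarian failure, was at 6.66, 6.70, 6.92 and 6.86 in the controls, 7.13, 6.95, 7.08 and 6.90 with GDF9, and 7.71, 7.87, 7.72 and 7.62 with FSH/EGF. It rose by 0.94 ± 0.09 (1.92-fold), with the smallest adjusted p of all members, 3.40e-06. Mrps31 was at 6.20 to 6.59 in the controls and 7.01 to 7.13 with FSH/EGF and rose by 0.66 ± 0.09. Mrps26 rose by 0.59 ± 0.12 and Mrps23 by 0.58 ± 0.11. Mrps25 was at 6.32, 6.43, 6.38 and 6.36 in the controls and 7.08, 6.84, 7.03 and 6.81 with FSH/EGF, a rise of 0.57 ± 0.07. None of the 5 overlapped between the groups. The call of Mrps26 was lost after quantile normalization (0.39, adjusted p = 0.0716). The other Mrps genes that rose were Mrps7, Mrps33 and Mrps34 of the small subunit, Mrps30 of the large subunit and Mrps36, by 0.30 to 0.50. The dimmer probe set of Mrps33 gave 0.21 ± 0.11 and did not pass (limma adjusted p = 0.162). The 15 small-subunit genes that did not pass lay between -0.25 and 0.29.

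Among large-subunit genes, Mrpl40, a protein of the central protuberance, was at 7.29, 7.28, 7.44 and 7.14 in the controls, 7.48, 7.29, 7.64 and 7.53 with GDF9, and 8.34, 8.40, 8.28 and 8.02 with FSH/EGF. It rose by 0.97 ± 0.10 (1.96-fold, adjusted p = 1.37e-05), with every FSH/EGF array above all others. Mrpl41 rose by 0.76 ± 0.13 on its brighter probe set and stood 0.17 ± 0.07 higher on the other (adjusted p = 0.0854), so its size depends on the probe set. Mrpl1, the counterpart of the bacterial L1 that guides the departing tRNA, was at 6.23, 6.25, 6.44 and 6.57 in the controls and 7.10, 6.98, 7.22 and 6.95 with FSH/EGF, a rise of 0.69 ± 0.12. Mrpl45, which anchors the ribosome at the inner membrane beside the exit tunnel, rose by 0.67 ± 0.16 from 6.88 to 7.26 in the controls to 7.58 to 7.88. Mrpl20 and Mrpl19, both with bacterial counterparts, rose by 0.60 ± 0.12 and 0.58 ± 0.10. The other 13 rises were of 0.28 to 0.57, in Mrpl15, Mrpl16, Mrpl18, Mrpl35, Mrpl38, Mrpl39, Mrpl43, Mrpl46, Mrpl49, Mrpl50, Mrpl51, Mrpl52 and Mrpl58. The dimmer probe set of Mrpl51 gave 0.54 ± 0.20 and did not pass (limma adjusted p = 0.0630).

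The 2 falls were in large-subunit genes with bacterial counterparts. Mrpl33 was at 5.75, 5.99, 6.22 and 6.09 in the controls, 5.99, 6.20, 6.48 and 6.29 with GDF9, and 5.41, 5.33, 5.51 and 5.36 with FSH/EGF. It fell by 0.61 on the log2 scale (SE 0.12, adjusted p = 0.00153), and all FSH/EGF arrays were below all others. Mrpl23, the counterpart of a protein at the exit of the tunnel, was at 8.30, 8.22, 8.16 and 8.56 in the controls and 7.90, 7.88, 7.83 and 7.43 with FSH/EGF, and fell by 0.55 (SE 0.18, adjusted p = 0.0407). Both of its probe sets gave about the same value (-0.55 and -0.56). The call of Mrpl23 was lost under 13 of 23 alternatives, with any control or FSH/EGF array left out among them, and the highest adjusted p was 0.208. Mrpl47 had 2 probe sets of opposite sign, -0.31 (adjusted p = 0.317) on the brighter and 0.41 (adjusted p = 0.0303) on the other.

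**Figure D4:**
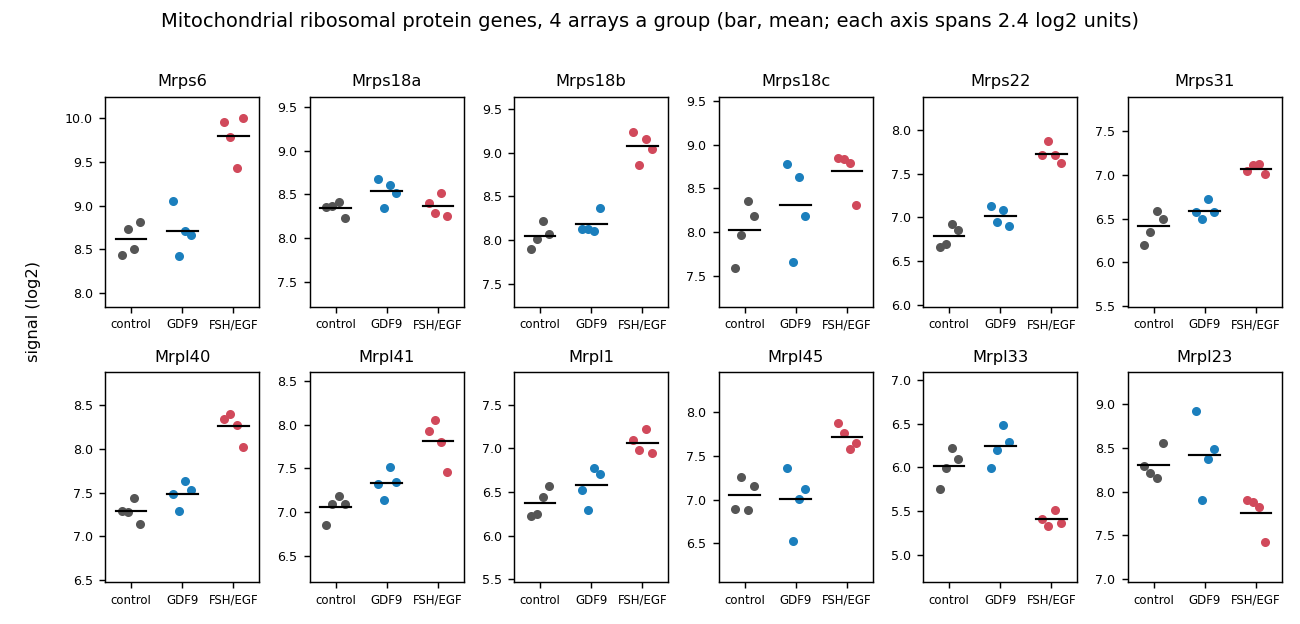
Log2 signal of 12 ribosomal genes on the 4 arrays of each group (points), with group means (bars); every axis spans 2.4 log2 units. FSH/EGF points lie above all others for Mrps6, Mrps18b, Mrps22 and Mrpl40, below all others for Mrpl33, and among the others for Mrps18a.

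At the outer membrane, the pore genes rose and the receptor genes did not pass the test. Tomm40, the channel of the TOM complex, was at 9.16, 8.94, 8.94 and 8.88 in the controls, 9.24, 9.06, 9.07 and 9.10 with GDF9, and 9.25, 9.36, 9.38 and 9.31 with FSH/EGF. It rose by 0.34 ± 0.08 (adjusted p = 0.00484), and its call was lost after quantile normalization (0.12, adjusted p = 0.367). Its paralogue Tomm40l was at 6.64, 6.43, 6.07 and 6.33 in the controls, 6.96, 6.70, 6.47 and 6.45 with GDF9, and 7.28, 7.15, 7.13 and 7.13 with FSH/EGF, a rise of 0.81 ± 0.13 (1.75-fold, adjusted p = 0.000483) without overlap. Among the small subunits that steady the pore, Tomm6 rose by 0.38 ± 0.09 (adjusted p = 0.00645; 0.16 and 0.226 after quantile normalization), while Tomm5 differed by 0.03 ± 0.15 and Tomm7 by -0.02 ± 0.13, both of which changed sign with the scaling.

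The receptors that first bind precursors were Tomm20 (0.07 ± 0.13, 95% interval -0.20 to 0.35), Tomm22 (0.10 ± 0.12, -0.16 to 0.37) and Tomm70a (0.21 ± 0.12, -0.05 to 0.47). These intervals leave room for a rise of the size seen in Tomm40, and all 3 differences fell below 0 after quantile normalization, to -0.14, -0.11 and -0.00473 (Tomm70a). Tomm34, a cytosolic cochaperone, was at -0.06 ± 0.11 and Tomm20l at -0.21 ± 0.13. Only 1 probe set of Tomm20 was used, and the other gave 0.12 ± 0.13.

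At the inner membrane, 3 of 6 TIM23 genes rose. Timm23, the channel, was at 9.03, 9.15, 9.13 and 9.23 in the controls, 9.51, 8.88, 9.41 and 9.36 with GDF9, and 9.54, 9.62, 9.62 and 9.36 with FSH/EGF. It rose by 0.40 ± 0.12 (adjusted p = 0.0263) without overlap, and its 4 probe sets, 2 of them with identical values, gave 0.31 to 0.40. Its channel partners, the paralogues Timm17a and Timm17b, rose by 0.43 ± 0.10 (adjusted p = 0.00749) and 0.35 ± 0.12 (0.0442), with overlapping arrays for Timm17b. The dimmer probe set of Timm17a gave 0.29 ± 0.11 and did not pass (limma adjusted p = 0.0580). The receptor Timm50 (0.15 ± 0.11), the motor tether Timm44 (-0.11 ± 0.09) and Timm21, which links TIM23 to the TOM complex (-0.19 ± 0.23), did not pass. The calls of Timm23, Timm17a and Timm17b were lost after quantile normalization (adjusted p of 0.241, 0.0948 and 0.492), and without control arrays 1 and 4 together for Timm23 (0.0926) and Timm17a (0.0618). Left-out arrays also ended the call of Timm23 (FSH/EGF arrays 1, 2 or 3, control arrays 1 or 3; highest adjusted p 0.0707) and of Timm17b (FSH/EGF arrays 1 to 3, control arrays 2 to 4, GDF9 arrays 3 and 4; highest 0.127).

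Both measured genes of the carrier translocase TIM22 rose. Timm29, a subunit found in animals, was at 6.28, 6.37, 6.27 and 6.55 in the controls, 6.69, 6.01, 6.41 and 6.57 with GDF9, and 7.46, 7.36, 7.15 and 7.47 with FSH/EGF, a rise of 0.99 ± 0.14 (1.99-fold, adjusted p = 0.000125). Its FSH/EGF arrays were above all others. Timm22, the channel-forming subunit, was at 6.18, 6.70, 6.54 and 6.40 in the controls and 7.06, 6.72, 6.85 and 6.68 with FSH/EGF, which overlapped, and rose by 0.37 ± 0.12 (adjusted p = 0.0318). That call was lost without control array 1 or 4, without FSH/EGF array 1 or 3 and after quantile normalization (adjusted p from 0.0642 to 0.112), and without both controls 1 and 4 (0.244).

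Of the 6 small TIM chaperones, Timm8b and Timm8a1 rose. Timm8b was at 7.29, 7.40, 7.60 and 7.69 in the controls, 7.54, 7.11, 7.87 and 7.72 with GDF9, and 8.11, 8.14, 8.04 and 8.06 with FSH/EGF, a rise of 0.60 ± 0.14 (1.51-fold, adjusted p = 0.00719) without overlap. Timm8a1, the gene whose human counterpart is defective in a deafness and dystonia syndrome, was at 5.78, 6.11, 6.18 and 6.34 in the controls, 6.51, 6.32, 6.43 and 6.45 with GDF9, and 6.62, 6.34, 6.51 and 6.43 with FSH/EGF. It rose by 0.37 ± 0.11 (adjusted p = 0.0228), with control array 4 and FSH/EGF array 2 both at 6.34 after rounding, and the call was lost without FSH/EGF array 1 (0.0716) or 3 (0.0574). The dimmer probe set of Timm8a1 gave 0.36 ± 0.13 and did not pass (limma adjusted p = 0.0515). The paralogue Timm8a2 was at 4.16 to 4.48 on all arrays and did not pass (-0.15 ± 0.07). Timm13, the partner of the Timm8 proteins, was at 0.04 ± 0.08, and Timm9 and Timm10, which form the other chaperone ring, at 0.01 ± 0.14 and 0.10 ± 0.14.

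**Figure D5:**
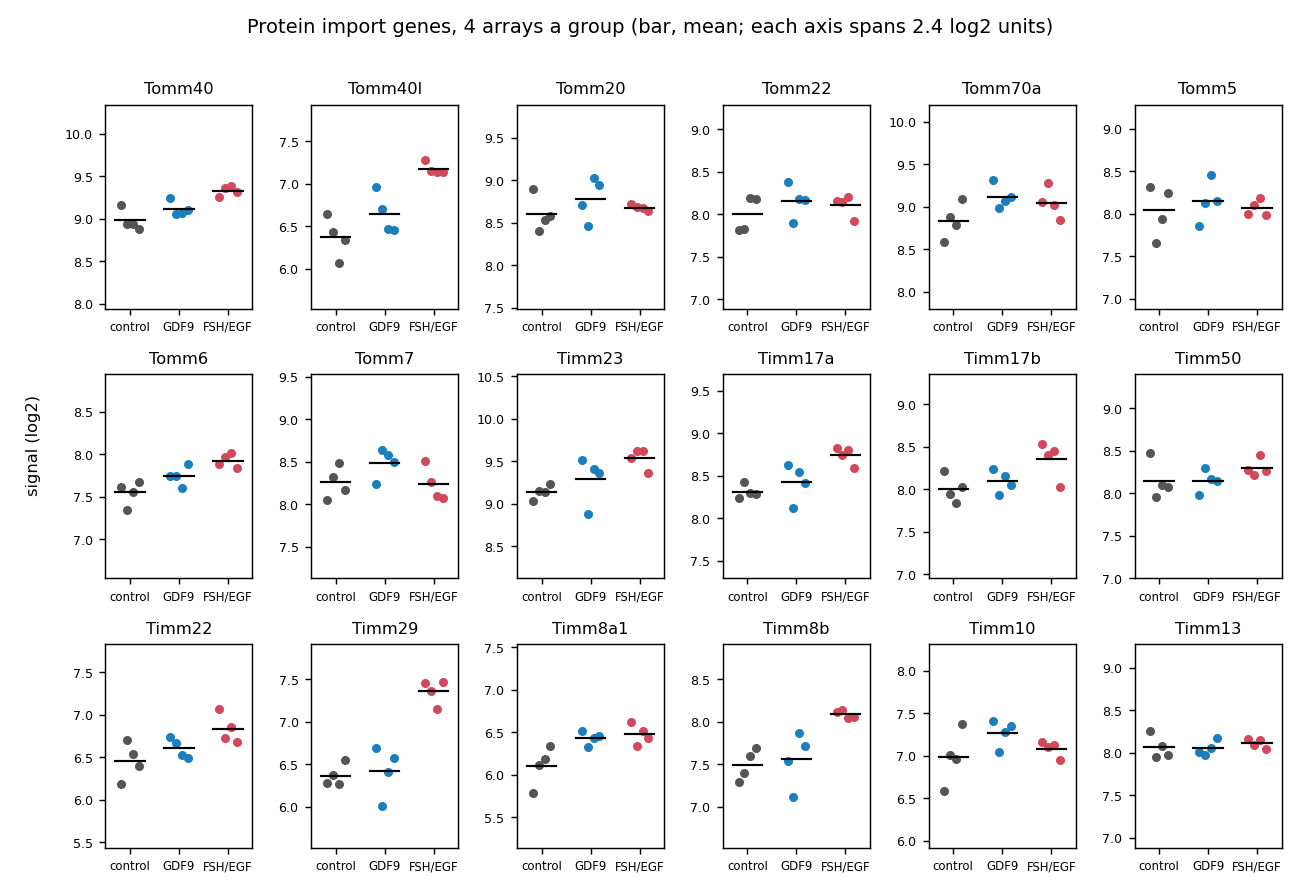
Log2 signal of 18 import genes on the 4 arrays of each group (points), with group means (bars); every axis spans 2.4 log2 units. FSH/EGF points lie apart from all others for Tomm40l, Timm29 and Timm8b, whereas the receptors Tomm20, Tomm22 and Tomm70a overlap between groups, with signs that depend on the scaling.

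Cytosolic ribosomal protein genes and respiratory chain genes, measured in the same way, gave other counts. Of 59 cytosolic ribosomal protein genes, 2 rose (3.39%) and 24 fell (40.7%) with FSH/EGF (median -0.25), against 42 and 2 of the 101 mitochondrial members. Of 101 oxidative phosphorylation genes, assembly factors included, 16 rose (15.8%) and 5 fell (4.95%), with a median of 0.07. Both shares of rises lay below the 21.9% of all genes, of which 14.9% fell. The members' counts became 22 and 10 after renewed quantile normalization, and the other sets were counted only in the deposited values. The difference between these sets was not tested.

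The other genes of mitochondrial translation gave mixed counts. Of 22 ribosome assembly genes, 6 rose (27.3%) and 1 fell, a share of rises between those of all genes (21.9%) and of the brighter genes (30.7%). Nsun4, a methyltransferase of mitochondrial rRNA, was at 5.63, 6.05, 5.86 and 5.99 in the controls and 7.07, 6.94, 6.85 and 6.92 with FSH/EGF and rose by 1.06 ± 0.13. Ddx28, an RNA helicase of the large subunit, rose by 0.97 ± 0.12 and Malsu1, an assembly factor of that subunit, by 0.65 ± 0.15, whereas the GTPase Noa1 fell by 0.37. Of 15 translation factors, 6 rose (40%) and 2 fell. The recycling factor Mrrf rose by 0.70 ± 0.10, the elongation factor Gfm1 by 0.62 ± 0.13 and Mtfmt, which formylates the initiator tRNA, by 0.58 ± 0.12. The GTPase Guf1 fell by 0.82 and the insertase Oxa1l by 0.40. Of the 4 measured ribosomal proteins with other names, Dap3, Ptcd3, Chchd1 and Gadd45gip1, 0 passed, at 0.07 to 0.30.

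Of 20 import partners, 5 rose (25%, against 21.9% of all genes and 30.7% of the brighter genes) and 1 fell. Hspa9, the chaperone that drives the import motor, was at 9.00, 9.55, 9.54 and 9.69 in the controls and 10.07, 10.04, 9.94 and 10.00 with FSH/EGF, a rise of 0.57 ± 0.14. Pmpca, a subunit of the protease that removes presequences, rose by 0.47 ± 0.10, and the nucleotide exchange factor Grpel1 by 0.32 ± 0.09. Gfer, the oxidase of the intermembrane space relay, fell by 0.25. Of 13 genes of mitochondrial DNA transcription and biogenesis, 5 rose (38.5%) and 2 fell. Gabpa, the DNA-binding subunit of GABP, was at 6.93, 7.20, 7.46 and 7.64 in the controls, 7.76, 7.62, 7.66 and 7.70 with GDF9, and 8.27, 8.16, 8.16 and 8.11 with FSH/EGF, and rose by 0.87 ± 0.12 (adjusted p = 0.000178). Its partner Gabpb1 rose by 0.63 ± 0.13 and Tfam, which packs and transcribes mitochondrial DNA, by 0.77 ± 0.21. Myc fell by 2.76 and the coactivator gene Ppargc1a, dim at 4.07 to 4.50 on all arrays, by 0.24. Of 8 genes taken as signs of mitochondrial mass, 3 rose (37.5%): Cycs by 0.94 ± 0.23, Vdac2 by 0.52 ± 0.16 and Cs by 0.45 ± 0.06.

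The comparison of GDF9 with control asked whether this oocyte factor acts on the same genes. No member passed the test, with limma calling 0 of 101 (0% of all genes higher and 0% lower). An unadjusted limma p under 0.05 was found for 7 of the 101 members and for 987 of all 19938 genes. The smallest adjusted p of a member was 0.971. The arrays did not separate the groups for any member, against 2.32% of all genes. The differences leaned above 0, with 82 of 101 positive and a median of 0.12, against -0.02 for all genes. Oxidative phosphorylation genes (83 of 101 positive, median 0.09) and cytosolic ribosomal protein genes (48 of 59, median 0.05) leaned the same way. After renewed quantile normalization 72 members were positive, with a median of 0.06. In the deposited values, the medians by class were 0.11 for Mrpl, 0.12 for Mrps, 0.08 for Timm and 0.17 for Tomm. The median 95% interval of a member reached 0.25 to either side, so that differences of this size could not be resolved gene by gene. The median deviation over the members was -0.03 on GDF9 array 2, within the range of the control arrays (-0.05 to 0.07). On the other GDF9 arrays it was 0.20, 0.13 and 0.12.

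The 2 members of each class that lay nearest to the threshold, all with an adjusted p of 0.971 in the limma fit, were Timm8a1 (0.32 ± 0.11) and Timm10 (0.29 ± 0.14), Mrpl38 (0.22 ± 0.08) and Mrpl16 (0.29 ± 0.12), Mrps22 (0.23 ± 0.09) and Mrps18a (0.20 ± 0.09), and Tomm70a (0.28 ± 0.12) and Tomm6 (0.19 ± 0.09). Mrpl38, of the central protuberance, was at 8.63, 8.38, 8.41 and 8.31 in the controls, 8.75, 8.59, 8.58 and 8.70 with GDF9, and 8.98, 8.98, 9.01 and 8.99 with FSH/EGF. Its GDF9 arrays overlapped with the controls only through control array 1.

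The comparison of FSH/EGF with GDF9 asked whether the treatments differ from each other. It shares the FSH/EGF arrays with the comparison above, and its values are set beside that one only as a description. Of the 101 members, 26 rose and 4 fell with FSH/EGF relative to GDF9, against 18.6% and 10.5% of all genes and 25.9% and 13.6% of the brighter genes. After renewed quantile normalization 14 rose and 12 fell. Under that scaling 15.6% of all genes rose and 12.1% fell, and 21.1% of the brighter genes rose and 16.7% fell. The members' rises were then no more frequent than those of all genes. The arrays did not overlap for 32 members (31.7%), against 33.7% of all genes. The members' share of rises in the deposited values, 25.7%, was near that of the brighter genes. The medians by class were 0.13 for Mrpl, 0.13 for Mrps, 0.10 for Timm and -0.07 for Tomm, and quantile normalization took the Mrpl median to -0.03. In both comparisons 25 members rose and 2 fell, and 17 rose against control without passing against GDF9. The share of all genes called in both was not computed, so these joint counts have no background.

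Mrps6 stood 1.08 ± 0.15 higher than with GDF9 (2.12-fold, adjusted p = 0.000169), Timm29 0.94 ± 0.14, Mrps18b 0.89 ± 0.10, Mrpl40 0.77 ± 0.10, Mrps22 0.71 ± 0.09 and Mrpl45 0.71 ± 0.16. Further rises were those of Mrps25 and Timm8b (both 0.53), Tomm40l (0.53 ± 0.13), Mrpl1 (0.49 ± 0.12) and Mrps31 (0.48 ± 0.09). After renewed quantile normalization the calls of Timm8b (0.37, limma adjusted p = 0.0559) and Tomm40l (0.41, 0.0535) against GDF9 were lost. Mrpl33 fell by 0.84 (SE 0.12, adjusted p = 0.000142) and Mrpl23 by 0.67 (SE 0.18, adjusted p = 0.0191), the latter lost without FSH/EGF array 4 (0.0616). Mrps9, the counterpart of a bacterial protein near the decoding site, was at 7.37, 7.21, 7.28 and 7.30 with GDF9 and 6.98, 7.08, 7.03 and 6.92 with FSH/EGF and fell by 0.29 (SE 0.07, adjusted p = 0.00634). Mrpl28 fell by 0.45 (SE 0.14, adjusted p = 0.0397), a call lost under 10 of 23 alternatives (highest adjusted p 0.120). Timm23, Timm22, Tomm40 and Tomm6 did not pass against GDF9 (0.24 ± 0.12, 0.22 ± 0.12, 0.20 ± 0.08 and 0.19 ± 0.09), and the receptors Tomm20, Tomm22 and Tomm70a lay at -0.11, -0.05 and -0.07.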

How the data were processed

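RNA of cumulus cells was hybridised to 12 Affymetrix arrays, 4 in each of 3 groups. The deposited values are log2 signals per probe set, and the tools named per the submitters' processing notes are GCOS, RMA and Partek; their versions and settings are not known here. The table holds 35399 probe sets, of which 21789 name 1 gene, 1621 several and 11989 none. Values were used as deposited. A linear model over the 3 groups was fitted to all probe sets with limma 3.58.1 in R 4.3.3, with empirical Bayes variances and p-values adjusted by Benjamini-Hochberg across the whole table, at a threshold of 0.05, and was tested on simulated data. Fold changes are 2 to the power of the log2 difference, and errors of differences are the model's SE. The number of arrays limits the precision. Depth has no counterpart on arrays. No array was left out, and 0 pairs of arrays were identical; correlations within groups were 0.971 to 0.995.

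The members, gene lists and named genes were chosen with earlier results of these data known. Named were all Timm and Tomm genes, up to 6 largest called rises and falls of Mrpl and of Mrps without overlap in each comparison (the 2 smallest p-values of a class where none passed), paralogue groups, and up to 3 called rises and falls of each other list. Further called genes are listed by name. The grouping by bacterial counterpart, the printed promoter windows, and Mrpl47 and Mrpl28 as single genes were chosen after their values were seen. Promoter windows and gene identities come from RefSeq (GRCm38.p6); all 101 members matched by Entrez identifier. The alternatives were other scalings, filters, variance models, array weights, probe set rules, a replicate block and left-out arrays.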

Additional observations from a re-analysis of the deposited data

Results flagged for a closer look

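Within each group of 4 arrays, the highest and the lowest value were set against the others by Dixon's criterion, which chance meets in about 1 in 20 groups. Among 156 groups tested for 48 named genes and the class medians, 10 values lay apart. With FSH/EGF, they were Mrpl23 on FSH/EGF array 4 at 7.43 (nearest array 7.83), Mrps18c on FSH/EGF array 4 at 8.31 (nearest 8.79) and Tomm40l on FSH/EGF array 1 at 7.28 (nearest 7.15). In the controls, Mrpl43 was low on array 2 at 6.70 (nearest 6.96), and its rise of 0.40 with FSH/EGF no longer passed without that array (0.33, limma adjusted p = 0.0527). With GDF9, Mrpl19 was high on array 1 at 6.90 (nearest 6.64), Mrps18b on array 4 at 8.36 (nearest 8.13) and Mrps26 on array 2 at 7.41 (nearest 7.32). Timm44 was high on FSH/EGF array 3 at 8.04 (nearest 7.88). The median deviation of the Mrpl genes was 0.0823 on control array 4 (nearest -0.0195), and that of the Mrps genes was -0.0491 on control array 1 (nearest 0.0098).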

How the results depend on the processing

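Each result was recomputed under 23 alternatives. For FSH/EGF against control, renewed quantile normalization gave 22 rises and 10 falls and medians of 0.0071 (Mrpl), 0.11 (Timm) and -0.13 (Tomm). Equal array medians gave 1 fall and an Mrpl median of 0.27, and leaving out control arrays 1 and 4 together gave 1 fall and a Tomm median of 0.21. For FSH/EGF against GDF9, renewed quantile normalization gave 14 rises, 12 falls and medians of -0.0304 (Mrpl) and -0.23 (Tomm), and array weights gave 7 falls. With 1 array left out, rises ran from 29 to 44 and falls from 1 to 2 against control (29 without FSH/EGF array 1), and from 20 to 30 and from 2 to 5 against GDF9 (2 without FSH/EGF array 4). GDF9 against control had 0 calls under each alternative run. The replicate block gave 38 rises and 1 fall against control and 23 and 4 against GDF9. Deviations from the group means correlated at -0.39 to 0.22 between same-numbered arrays. Differently numbered arrays were not compared, so whether the numbers pair the arrays was not settled. Over all 101 members, 24 differences from control changed sign after quantile normalization and 5 with equal array medians, 0 of them past the test under either scaling. Among the named genes, they were after quantile normalization Timm10 -0.0514, Timm13 -0.18, Timm50 -0.0729, Tomm20 -0.14, Tomm22 -0.11, Tomm5 -0.19, Tomm70a -0.00473 and Mrps18a -0.20. Among the named genes they were Tomm34 0.0154 and Tomm7 0.0555 with equal medians, Timm9 -0.0239 with array weights, and without controls 1 and 4 Timm9 -0.0272 and Mrps18a -0.0311. With 1 array left out, Timm10 ran from -0.0308 to 0.235, Timm9 from -0.10 to 0.0939, Tomm5 from -0.0984 to 0.119, Tomm7 from -0.114 to 0.0565 and Mrps18a from -0.0299 to 0.0550. Beyond the construction of each alternative, the cause was not tested. Of 44 calls against control 21 held under every alternative run, and of 30 calls against GDF9 15 did.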
